A study of Homo sapiens with 14 samples.

Results

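The nuclear genes for the respiratory chain were followed through the 14 RNA-seq libraries of a panel of small molecules in U2OS cells. Members were chosen by symbol, with patterns for the subunits of complex I (NDUFA, NDUFB, NDUFC, NDUFS and NDUFV genes), complex II (SDHA to SDHD), complex III (UQCR genes), complex IV (COX5 to COX8 genes) and complex V (ATP5 genes), and by a mean of at least 1 FPKM in a table. FPKM is the number of fragments per unit of transcript length, scaled to the mapped fragments of the library, so levels can be set side by side between genes. Of 83 matching symbols, 75 passed in either of the 2 deposited tables, out of 30791 gene symbols in either. They comprised 37 genes of complex I, 4 of complex II, 9 of complex III, 9 of complex IV and 16 of complex V. All but UQCRHL, a near-identical copy of UQCRH that passed only in the replicate 2 table at a mean of 1.18 FPKM, passed in both tables, and these 74 entered every comparison. The patterns leave out some subunits with other names, among them CYC1, COX4I1, NDUFAB1, ATPIF1 and USMG5, which are given apart. NDUFA4 counts under complex I by its symbol although it is now known as a subunit of complex IV.

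The respiratory chain sits in the inner mitochondrial membrane. Complexes I and II pass electrons from NADH and succinate to ubiquinone, complex III passes them on to cytochrome c, and complex IV passes them to oxygen. Complexes I, III and IV pump protons, and complex V, the ATP synthase, uses the resulting gradient to make ATP. Most subunits are encoded in the nucleus, a few core subunits of all complexes but II in mitochondrial DNA. Transcription of the nuclear genes is known to draw on the factors NRF1, GABP (NRF2), YY1 and the PGC-1 coactivators. Proliferating tumour lines such as U2OS, a line from a human osteosarcoma, express the ubiquitous forms of these subunits.

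All groups were U2OS cells, grown in RPMI medium with serum. The control received 0.5% DMSO by volume, for a time that the labels do not give. The compounds were 2-PCPA (tranylcypromine, which inhibits LSD1 and monoamine oxidases) at 1 mM for 12 h, GSK343 (an EZH2 inhibitor) at 10 μM for 24 h and rapamycin (an mTOR inhibitor) at 5 μM for 24 h, each with 2 libraries, as for DMSO. A further 6 compounds had 1 library each, which were BIX-01294 (an inhibitor of the methyltransferase G9a) at 5 μM for 12 h, BRD4770 (also directed at G9a) at 20 μM for 24 h, GSK-J4 (an inhibitor of KDM6 demethylases) at 20 μM for 12 h, SAHA (a histone deacetylase inhibitor) at 1 μM for 24 h, UNC1215 (a ligand of the methyl-lysine reader L3MBTL3) at 50 μM for 24 h and VPA (valproic acid, a histone deacetylase inhibitor) at 20 μM for 24 h. The deposited tables held 10 libraries (replicate 1) and 4 libraries (replicate 2). Whether the replicates came from separate cultures is not stated in the labels. The p-values therefore reflect the spread among these 8 libraries alone, and that spread may be technical. All compounds of a table share 1 DMSO library, and doses and times differ between compounds.

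Absolute depth is unknown because the tables hold no counts. Relative to its DMSO library, depth as read from the lowest FPKM values was between 0.559 (BIX-01294) and 1.25 (SAHA) for replicate 1, and between 0.678 (GSK343) and 0.812 (2-PCPA) for replicate 2. The replicate 1 library of 2-PCPA stood apart. Its median log2 difference from DMSO over all genes was -0.43, against 0.01 in replicate 2, and 28.0% of the 375 olfactory receptor rows, genes that are silent in most tissues, were above 0 in it, against 2.4% to 6.4% in the other libraries of that table. Differences are therefore given as centred differences, meaning the log2 difference of FPKM + 1 from DMSO of the same table minus the median of that difference over all genes. The osteoblast and mesenchymal markers summed to 700.2 FPKM or more in every library, but the list was uneven. VIM alone stood at 388 to 950 FPKM in the replicate 1 table. On the low side, RUNX2 ranged over 0.629 to 5.27 FPKM and ALPL over 0 to 4.76 FPKM in that table. COL1A2 was at most 0.0987 FPKM, and TWIST1 was listed at 0 throughout. Of the blood cell markers 0 of 5 reached 1 FPKM in either table, with CD3E at 0 and a sum of at most 0.793 FPKM. The 5 epithelial markers summed to 3.01 to 13.7 FPKM and the 5 muscle markers to 1.92 to 49.3 FPKM over the libraries.

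The members were among the more strongly expressed genes of U2OS cells, and complexes IV and V were the highest. With DMSO in the replicate 1 table the median member stood at 79.6 FPKM, and the members together held 1.91% of the summed FPKM of the table. The median was 65.7 FPKM for complex I, 66.1 for complex II, 67.9 for complex III, 223 for complex IV and 142 for complex V. The replicate 2 table had the same 2 complexes on top, with 324 FPKM for complex IV and 138 for complex V against 85.7, 63.8 and 107 for complexes I, II and III.

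Within complex I the highest means over the replicate 1 table were those of NDUFB9 (269 FPKM), NDUFS5 (259.9 FPKM) and NDUFB4 (213 FPKM), all accessory subunits. The lowest of the complex were NDUFS7 (19.7 FPKM), a core subunit that carries an iron-sulfur cluster, NDUFA5 (16.3 FPKM) and NDUFV3 (8.92 FPKM). In complex II the iron-sulfur subunit SDHB, the flavoprotein SDHA and the anchor SDHD lay at 64.5, 52.2 and 68.6 FPKM, and the anchor SDHC at 32.3 FPKM. In complex III the hinge protein gene UQCRH led with 345 FPKM, followed by UQCR10 (165 FPKM) and the Rieske protein gene UQCRFS1 (106 FPKM), while UQCRB (17.8 FPKM) and UQCR11 (23.7 FPKM) were lowest of those in both tables. Complex IV ran from COX6A1 (371 FPKM), COX7C (350.3 FPKM) and COX8A (348 FPKM) down to COX7A2 (120.2 FPKM), COX5A (96.0 FPKM) and COX6C (94.6 FPKM). Complex V had the widest spread. Its highest were ATP5E (549 FPKM), the epsilon subunit of the catalytic head, ATP5J2 (309.8 FPKM) and ATP5B (252 FPKM, the catalytic beta subunit). Its lowest were ATP5G3 (45.9 FPKM), ATP5D (45.6 FPKM, the delta subunit) and ATP5S (5.50 FPKM). As a fold range the widest spread rested on ATP5S alone. Without ATP5S complex V ran from 45.6 to 549 FPKM, against 8.92 to 269 FPKM for complex I.

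Forms known from other tissues or from hypoxia were below 1 FPKM on average in both tables. The heart and muscle forms COX6A2 and COX7A1, the testis forms COX6B2, COX7B2 and COX8C, the hypoxia-linked NDUFA4L2, and ATP5L2 and the copy UQCRBP1 made up the 8 matching symbols below the minimum. COX6A2, COX7B2 and COX8C were listed at 0 in all 14 libraries, COX6B2 ranged over 0 to 0.692 FPKM in the replicate 1 table, and NDUFA4L2 over 0 to 0.691 FPKM. Their common forms stood far higher in the same table, COX6A1 at 234 to 646 FPKM, COX6B1 at 119 to 259 FPKM, COX7A2 at 76.3 to 183 FPKM, COX7B at 156 to 324 FPKM, COX8A at 199 to 470.2 FPKM, NDUFA4 at 49.9 to 81.3 FPKM and ATP5L at 46.7 to 117 FPKM. The 3 genes of the c ring, the rotor of complex V, all encode the same mature peptide and were all expressed, with ATP5G2 above ATP5G1 and ATP5G3 in mean level (174, 101 and 45.9 FPKM).

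**Figure D1:**
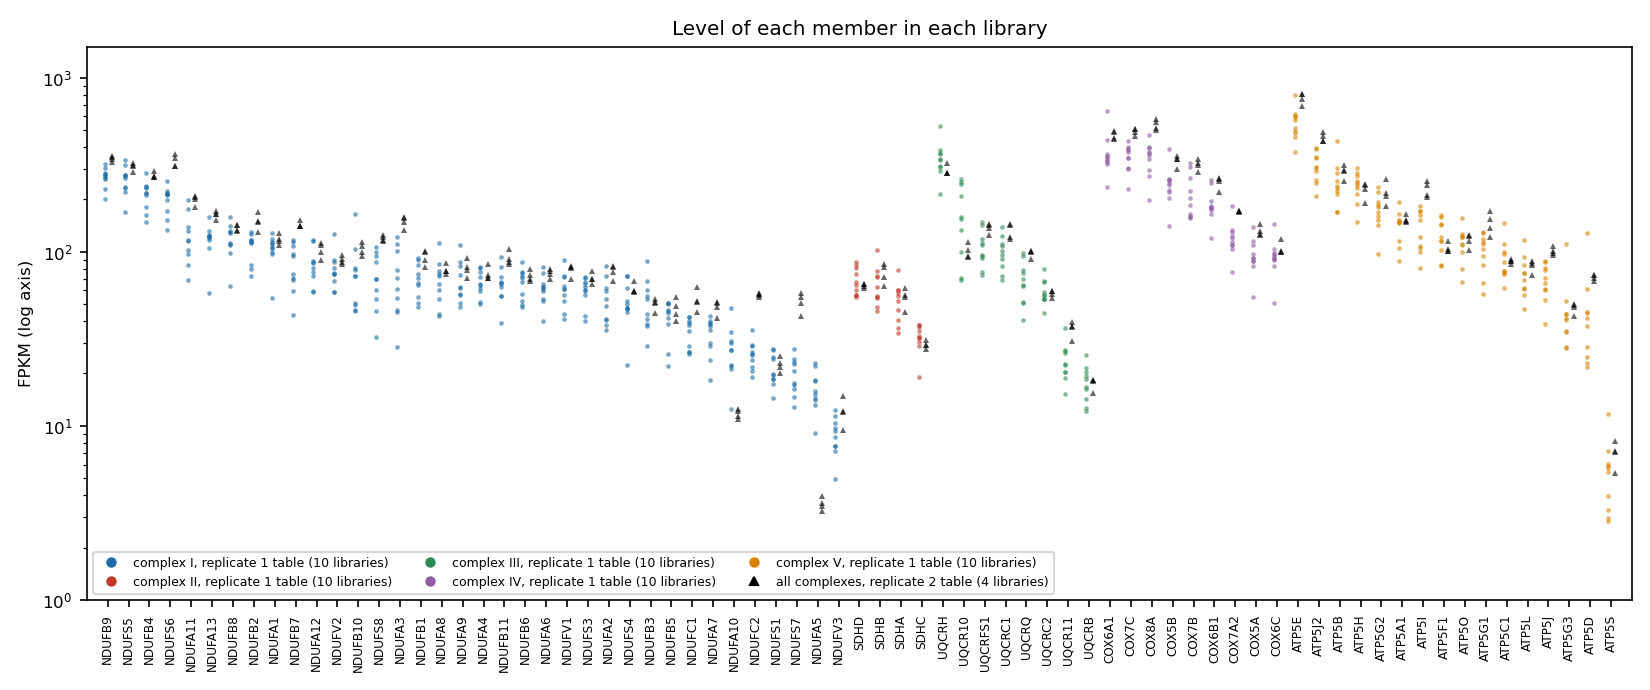
FPKM (log axis) of 73 of the 74 members in both tables, ordered by complex and mean level, with coloured circles for the 10 libraries of the replicate 1 table and black triangles for the 4 of the replicate 2 table. Complexes IV and V held the highest genes, ATP5S was the lowest in the replicate 1 table and NDUFA5 in the replicate 2 table.

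For 14 members the range over the libraries of the replicate 2 table lay wholly above that of the replicate 1 table, for 2 it lay wholly below, and for the other 58 the ranges overlapped. The same count was not made over all genes, so it describes the tables and not a trait of the members. NDUFA5 ranged over 9.10 to 23.1 FPKM in the replicate 1 table and 3.27 to 3.95 in the other, NDUFA10 over 12.6 to 47.7 and 10.9 to 12.5, NDUFC2 over 19.1 to 35.4 and 55.1 to 57.8, and NDUFS7 over 12.9 to 27.5 and 42.6 to 57.9. NDUFA5, NDUFA10, NDUFC2 and NDUFS7 were picked here after their values were seen. Differences from DMSO were therefore taken within a table.

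The promoters of the members carry letters that the choice by symbol did not use. RefSeq promoters (250 bases before to 50 bases after the gene start, build GRCh38.p14) were found for 61 of the 75 members, with older symbols matched through RefSeq synonyms, and were searched on both strands for 3 motifs. The NRF1 letters (GCGCA, any base, GCGC) were in the promoters of 15 of 61 members (24.6%), against 6.28% of all 27305 promoters and 8.58% of those of coding genes. The GABP letters (CCGGAAG) were in 18 (29.5%), against 10.7% and 14.2%. The YY1 letters (AA, any base, ATGGCG, any base, C) were in 11 (18%), against 2.27% and 3.28%. At least 1 of the motifs was in 34 promoters, and matches of different motifs overlapped in 0. In complex IV 0 of 8 promoters had the NRF1 or the YY1 letters and 4 had the GABP letters, while in complex III 4 of 7 had the NRF1 letters. A match describes the sequence and does not show binding. The sites below belong to members named in the text, and only matches before the gene start are printed. Each is 30 bases long, written 5′ to 3′ on the strand of the gene, with the matched motif, or its reverse complement, in capitals. The NRF1 letters come first, from 2 genes of complex II and 2 of complex I.
SDHA (chr5:218291-218320, plus strand): ccggtgtggtGCGCAGGCGCagtctgcgca
SDHD (chr11:112086753-112086782, plus strand): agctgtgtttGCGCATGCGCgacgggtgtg
NDUFA9 (chr12:4649024-4649053, plus strand): ttcttggttaGCGCTTGCGCagacaggcga
NDUFA3 (chr19:54102772-54102801, plus strand): gtgctccaggGCGCACGCGCagccctggga
The GABP letters follow, from SDHB, NDUFS1, ATP5H, COX5B and COX8A.
SDHB (chr1:17054142-17054171, minus strand): cacccgggaaaCCGGAAGccgcctcccact
NDUFS1 (chr2:206159583-206159612, minus strand): ggctggggccaCTTCCGGcggaactgcggg
ATP5H (chr17:75047052-75047081, minus strand): ccgggaagataCTTCCGGaaccagccctca
COX5B (chr2:97646014-97646043, plus strand): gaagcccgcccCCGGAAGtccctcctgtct
COX8A (chr11:63974591-63974620, plus strand): cagctccagaaCTTCCGGccagcgcagcca
The YY1 letters are shown for the core subunit gene NDUFS8, 180 bases before the start. The YY1 matches of the other members lay 9 to 28 bases after the start and are not printed.
NDUFS8 (chr11:68030492-68030521, plus strand): ccccaaaccAACATGGCGGCcccctacaaa
The SDHA promoter held the NRF1 letters 4 times at an even spacing, 166, 117, 68 and 19 bases before the start, and the SDHD promoter held both the NRF1 letters (110 bases before) and the GABP letters (77 bases before).

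With 2-PCPA the members lay low as a group, although no single member passed the test. In bulk RNA, fewer cells that express a gene and less of its RNA per cell cannot be told apart. Of the 74 members, 53 lay below the median of all genes in both replicates (71.6%, against 31.8% of all 12603 genes tested) and 3 lay above it in both. Set against DMSO without centring, 62 were lower and 0 higher in both replicates (background 42.2% and 11.5%). The median centred difference of the members was -0.18, with -0.23 in replicate 1 and -0.14 in replicate 2. Genes at 50 FPKM or more, a class that holds many of the members, had a median of -0.15 and 58.2% below in both replicates, and set against that class the member median was -0.03. The limma test called 0 members, against 0.00793% of all genes called higher and 0.0159% called lower. The smallest adjusted p of a member was 0.592 (limma, Benjamini-Hochberg). At an unadjusted p below 0.05 there were 8 members lower and 0 higher (background 5.99% and 1.49%).

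By complex the median centred difference with 2-PCPA was -0.23 for complex V, -0.19 for complex I, -0.17 for complex II, -0.16 for complex IV and -0.07 for complex III. These values shrank under other scalings. Against genes at 50 FPKM or more they were -0.09 for complex V, -0.04 for complex I, -0.02 for complex II and -0.01 for complex IV, and with quantile normalization -0.13, -0.07, -0.06 and -0.0011. The complex III value turned to 0.08 and 0.09. Within complex V the c ring (-0.37, 3 of 3 genes below in both replicates) and the peripheral stalk (-0.32, 4 of 4), which holds the catalytic head still, were lowest, with -0.22 and -0.17 against genes at 50 FPKM or more. In complex I, 27 of 37 genes (73%) lay below in both replicates. The background for these counts was 31.8% of all genes tested and 58.2% of genes at 50 FPKM or more. The order of these medians was not tested.

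The member lowest with 2-PCPA was NDUFB3, an accessory subunit of the complex I membrane arm, at 28.7 FPKM against 68.3 with DMSO in replicate 1, and 44.4 against 53.5 in replicate 2. Its log2 fold change was -0.74 ± 0.28 (SE, limma, Benjamini-Hochberg adjusted p = 0.592). ATP5G1, of the c ring, stood at 57.2 FPKM against 114 with DMSO in replicate 1, and 122 against 153 in replicate 2. It was low in both replicates relative to all genes, with centred differences of -0.56 and -0.33. ATP5H, of the peripheral stalk, stood at 148 FPKM against 282 with DMSO in replicate 1, and 192 against 241 in replicate 2, with centred differences of -0.51 and -0.33. The other members that the rule named were NDUFA10 (-0.77 and -0.15 in replicates 1 and 2), NDUFS4 (-0.72 and -0.20), a subunit needed for complex I stability, and NDUFB5 (-0.61 and -0.29). For NDUFB3, NDUFA10 and NDUFS4 the replicate 1 value, from the library that stood apart, was by far the larger in size.

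Above the median in both replicates were NDUFA4 (0.38 and 0.05), SDHB (0.05 and 0.05) and UQCRFS1 (0.06 and 0.01). NDUFA4 stood at 49.9 FPKM against 51.3 with DMSO in replicate 1, and 73.7 against 71.0 in replicate 2, close to its control. SDHB and UQCRFS1 turned to the other side of the median under a pseudocount of 5 and without a filter on low values. Across the 74 members the centred differences of the replicates correlated at 0.02 (Pearson, over genes of the same libraries), against 0.11 across all genes tested. Without the replicate 1 library of 2-PCPA the member median was -0.12.

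With GSK343 the members as a group stood where all genes stood, while complex II lay to the low side. The centred differences of the members had a median of 0.04, with 0.05 in replicate 1 and -0.03 in replicate 2. In both replicates 22 members lay above the median of all genes and 24 below (29.7% and 32.4%, background 31.6% each). Set against DMSO without centring, 27 were higher and 21 lower in both replicates (background 34.6% and 26.7%). The limma test called 0 members, against 0.00793% of all genes called higher and 0.00793% lower, and 0 had an unadjusted p below 0.05 (background 3.3% higher and 0.92% lower). All 4 genes of complex II lay below in both replicates, with a median of -0.19, as did 4 of 4 of the peripheral stalk of complex V (-0.17). Complex I had 0.05, complex III 0.03, complex V 0.03 and complex IV 0.06, which turned to -0.01 with quantile normalization.

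The lowest member with GSK343 was NDUFA9, an accessory subunit near the ubiquinone site of complex I, at 57.2 FPKM against 87.4 with DMSO in replicate 1, and 81.9 against 91.6 in replicate 2. Its log2 fold change was -0.38 ± 0.24 (limma, adjusted p = 0.949). SDHD stood at 56.5 FPKM against 84.4 with DMSO in replicate 1, and 61.7 against 65.3 in replicate 2, a gap that was mostly in replicate 1. NDUFA5 (-0.45 and -0.23 in replicates 1 and 2), the core subunit NDUFS1 (-0.52 and -0.13), ATP5F1 of the peripheral stalk (-0.45 and -0.17) and the core protein UQCRC2 (-0.34 and -0.15) followed. On the high side NDUFA3 stood at 111 FPKM against 61.0 with DMSO in replicate 1, and 159 against 148 in replicate 2. UQCR11 (0.24 and 0.33) was high by a like amount in each, whereas ATP5L (0.69 and 0.02), NDUFS8 (0.58 and 0.03), ATP5D (0.41 and 0.04) and NDUFA6 (0.41 and 0.02) were high in replicate 1 and near 0 in replicate 2. ATP5D turned to -0.07 when the replicate 1 library of GSK343 was left out. UQCR10 had the highest fitted value of all members, 0.82, but from opposite sides, 1.82 and -0.17. Across the members the centred differences of the replicates correlated at 0.06, against 0.10 across all genes tested.

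Rapamycin was much the same, with a group median near that of all genes and complex II low in both replicates. The members' median was 0.02, with -0.01 and -0.04 in replicates 1 and 2, and it turned to -0.02 with quantile normalization. In both replicates 22 members lay above and 29 below the median of all genes (29.7% and 39.2%, background 31.8% each). Without centring 14 were higher and 32 lower than DMSO in both (background 25.5% and 37.1%). The limma test called 0 members, against 0% of all genes called higher and 0.0159% lower, and 0 had an unadjusted p below 0.05 (background 3.22% higher and 3.24% lower). Complex II had a median of -0.27, with 4 of 4 genes below in both replicates. Complex IV had 0.10, complex III 0.09, complex I 0.03 and complex V -0.05.

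SDHA, the flavoprotein that oxidizes succinate, stood at 46.4 FPKM against 60.4 with DMSO in replicate 1, and 45.1 against 62.3 in replicate 2. The centred differences were -0.32 and -0.42, and the log2 fold change was -0.41 ± 0.24 (limma, adjusted p = 0.769). SDHB stood at 54.3 FPKM against 71.8 with DMSO in replicate 1, and 63.6 against 82.1 in replicate 2, with centred differences of -0.34 and -0.33. These 2 genes were lower than DMSO by a like amount in each replicate. The complex I genes NDUFS1 (-0.49 and -0.27) and NDUFA9 (-0.42 and -0.33) and the catalytic subunit gene ATP5B (-0.35 and -0.27) were low in both as well, while NDUFB3 was low in replicate 1 and near 0 in replicate 2 (-0.80 and -0.02). NDUFA4 was the highest of those above the median in both replicates, at 64.4 FPKM against 51.3 with DMSO in replicate 1, and 84.6 against 71.0 in replicate 2. ATP5G2 (0.34 and 0.28), NDUFB11 (0.41 and 0.21), ATP5L (0.47 and 0.12), NDUFA3 (0.41 and 0.11) and UQCRQ (0.61 and 0.03) lay above the median in both. Across the members the centred differences of the replicates correlated at 0.25, against 0.16 across all genes tested.

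**Figure D2:**
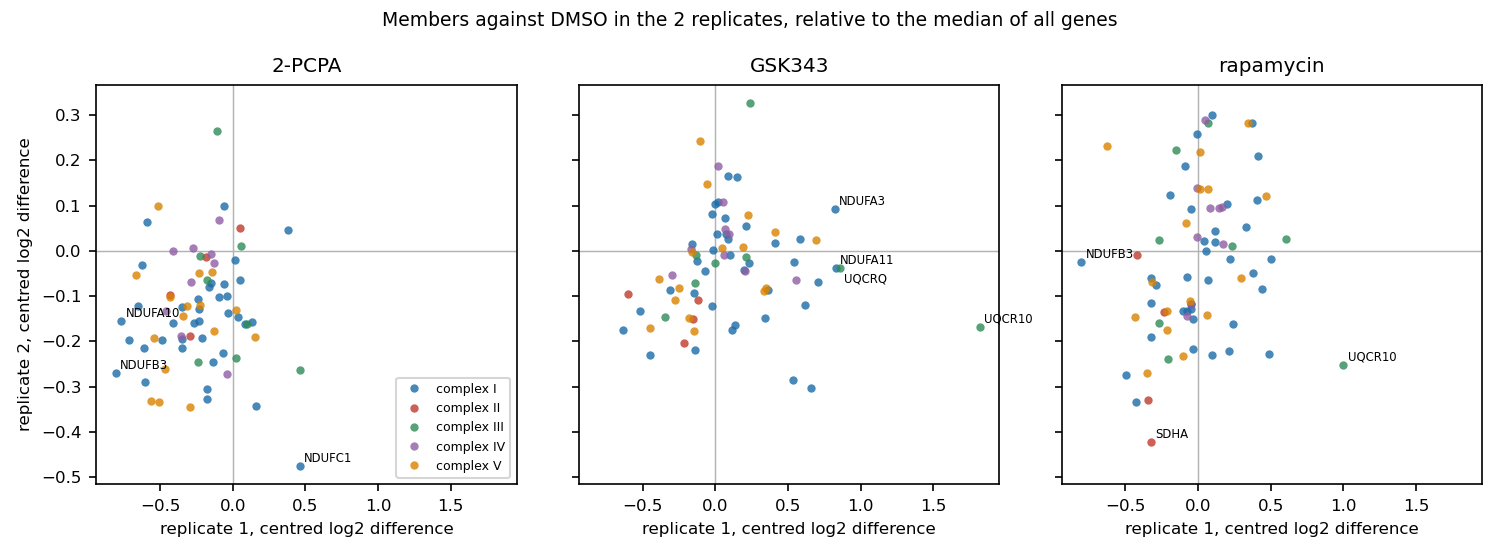
Centred log2 difference from DMSO of each of the 74 members in replicate 1 (horizontal axis) and replicate 2 (vertical axis), coloured by complex, for 2-PCPA, GSK343 and rapamycin. With 2-PCPA most points lie in the lower left, with GSK343 and rapamycin they lie around 0, and the red points of complex II lie below 0 in both replicates with GSK343 and rapamycin. The vertical axis spans a smaller range of values than the horizontal axis.

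Complex II, the link between the citric acid cycle and the chain, had a median below that of all genes with 7 of the 9 compounds. This was not particular to complex II. Complex V was below with the same compounds except GSK343 (0.03). The citric acid cycle list, given further on, was below with the same compounds except BIX-01294 (0.08). SDHA stood at 60.4 FPKM with DMSO in the replicate 1 table, at 36.4 with 2-PCPA, 55.4 with GSK343, 46.4 with rapamycin, 40.3 with BIX-01294, 52.1 with BRD4770, 34.4 with GSK-J4, 78.5 with SAHA, 60.0 with UNC1215 and 57.9 with VPA. In the replicate 2 table it stood at 62.3 with DMSO, 54.8 with 2-PCPA, 56.6 with GSK343 and 45.1 with rapamycin. SAHA was the 1 library above DMSO, and GSK-J4 was the lowest. SDHB stood at 71.8 FPKM with DMSO in the replicate 1 table, at 55.5 with 2-PCPA, 62.9 with GSK343, 54.3 with rapamycin, 72.4 with BIX-01294, 45.5 with BRD4770, 48.3 with GSK-J4, 102 with SAHA, 77.5 with UNC1215 and 55.2 with VPA. In the replicate 2 table it stood at 82.1 with DMSO, 85.4 with 2-PCPA, 71.9 with GSK343 and 63.6 with rapamycin. SDHB was thus highest with SAHA and lowest with BRD4770 in the replicate 1 table, and in the other 2-PCPA alone was above DMSO. The anchor genes SDHC and SDHD lay closer to DMSO with SAHA. SDHC stood at 35.1 FPKM with DMSO in the replicate 1 table, at 19.1 with 2-PCPA, 33.0 with GSK343, 28.7 with rapamycin, 37.9 with BIX-01294, 30.3 with BRD4770, 31.8 with GSK-J4, 36.8 with SAHA, 38.1 with UNC1215 and 31.9 with VPA. In the replicate 2 table it stood at 31.3 with DMSO, 29.3 with 2-PCPA, 29.3 with GSK343 and 27.7 with rapamycin. The 2-PCPA library that stood apart was the lowest for SDHC. SDHD stood at 84.4 FPKM with DMSO in the replicate 1 table, at 55.3 with 2-PCPA, 56.5 with GSK343, 60.5 with rapamycin, 86.9 with BIX-01294, 64.4 with BRD4770, 66.8 with GSK-J4, 74.6 with SAHA, 80.3 with UNC1215 and 56.1 with VPA. In the replicate 2 table it stood at 65.3 with DMSO, 64.9 with 2-PCPA, 61.7 with GSK343 and 63.4 with rapamycin. DMSO was above 8 of the 9 compounds for SDHD and above 6 of 9 for SDHC in the replicate 1 table. The median centred difference over the 4 genes was -0.45 with GSK-J4, -0.29 with BRD4770, -0.27 with rapamycin, -0.26 with VPA, -0.19 with GSK343 and -0.17 with 2-PCPA. It was -0.03 with BIX-01294, 0.01 with UNC1215 and 0.17 with SAHA. The sign of each was the same under the alternative scalings tried, but the medians with 2-PCPA and BIX-01294 shrank to -0.0247 and -0.0091. With 2-PCPA the median of SDHA and SDHB alone ran from -0.0973 to 0.0504 over the scalings. These comparisons share their DMSO libraries, so they are not independent of each other.

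**Figure D3:**
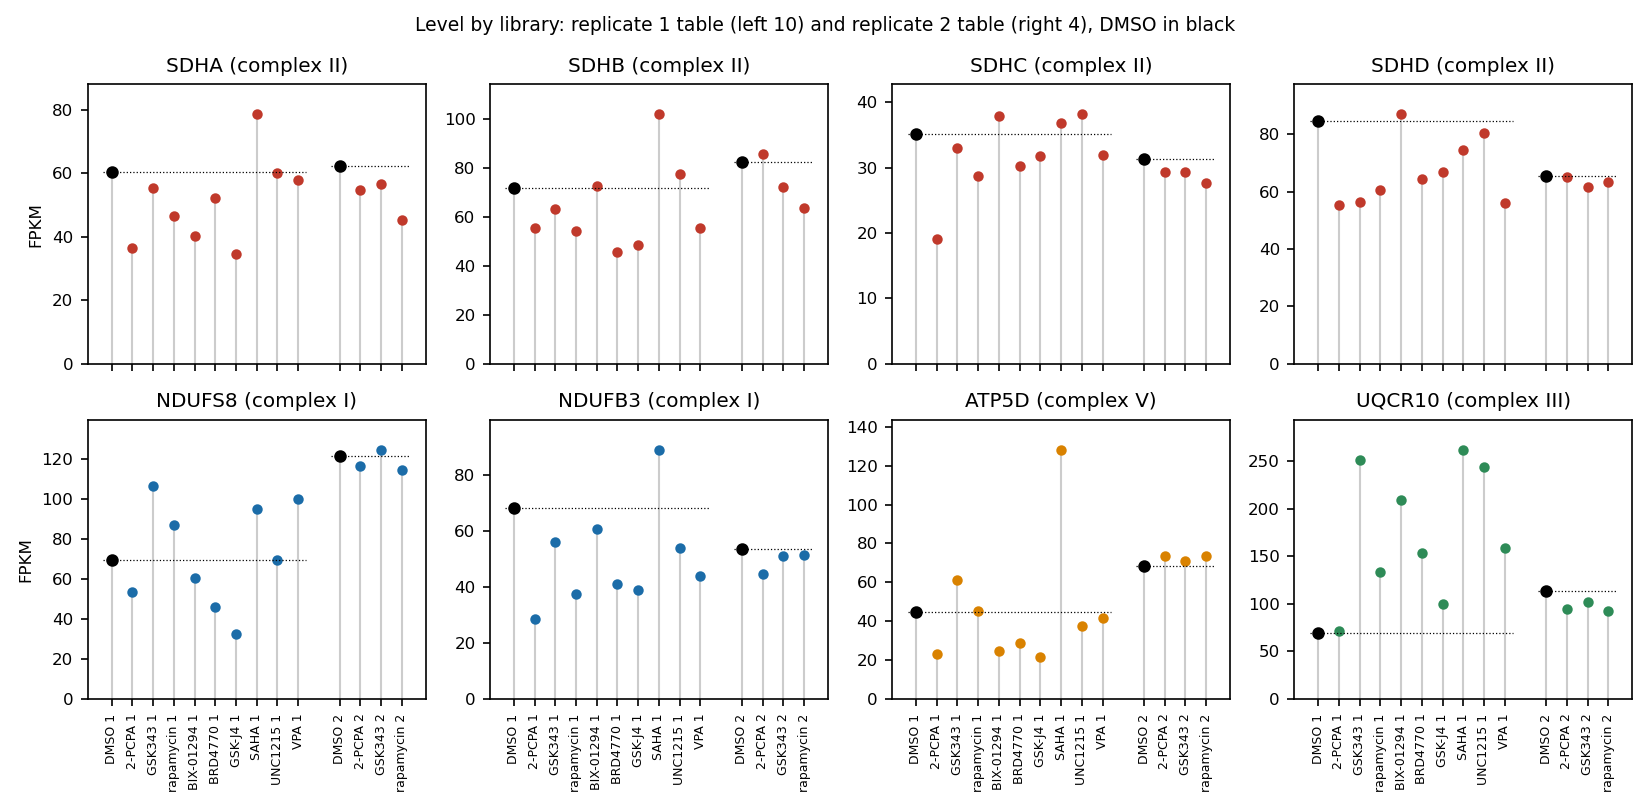
FPKM by library for the 4 genes of complex II, NDUFS8, NDUFB3, ATP5D and UQCR10, with the replicate 1 table at the left and the replicate 2 table at the right of each panel and a dotted line at DMSO (black). SDHA and SDHB were highest with SAHA, and UQCR10 was lowest with DMSO in the replicate 1 table but highest with DMSO in the replicate 2 table.

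The 6 compounds with a single library have no replicate check, and their values compare 2 libraries. Of these, the SAHA library had the most members at least 1.5-fold above the median of all genes, and the highest relative depth (1.25 times that of DMSO). Centred differences had a median of 0.30, and 20 members were at least 1.5-fold above the median of all genes against 2 at least 1.5-fold below (27% and 2.7%, background 17% and 13.7%, and 15.4% and 8.74% of genes at 50 FPKM or more). The SAHA library was the highest of the 10 of its table for 41 of the 74 members by centred difference and for 42 by FPKM. How often it was the highest over all genes was not counted, so these 2 counts have no background. Complex IV (0.60, 9 of 9 genes above the median) and complex III (0.58, 7 of 8) led, ahead of complex V (0.24), complex I (0.17) and complex II (0.17). Within complex V the catalytic head had 0.56, with 5 of 5 genes above. The median over all members ranged from 0.21 to 0.30 under the scalings tried, and those of complexes V, I and II fell to 0.15, 0.07 and 0.09 at the lowest. The part of depth in these values was not tested.

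With SAHA UQCR10, a small subunit of complex III, stood at 262 against 68.8 FPKM with DMSO, a centred difference of 1.86. ATP5D stood at 128 against 44.5 FPKM (1.45), ATP5G3 at 110.1 against 41.7 FPKM (1.33) and NDUFB10 at 166 against 78.2 FPKM (1.02). Within complex IV, COX6A1 stood highest at 646 against 343 FPKM (0.86), COX5B at 391 against 242 FPKM (0.63) and COX7C lowest, at 435 against 374 FPKM (0.16). COX6A1, COX5B and COX7C were picked here after their values were seen. The low side held ATP5S at 2.83 against 6.04 FPKM (-0.93), NDUFA9 at 56.7 against 87.4 FPKM (-0.67), NDUFB2 at 79.3 against 112 FPKM (-0.55) and NDUFA10 at 22.2 against 29.8 FPKM (-0.46). The c ring genes differed among themselves, since ATP5G1 had 0.11 and ATP5G2 -0.15 where ATP5G3 had 1.33.

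The GSK-J4 library had the most members at least 1.5-fold below the median among the 6 compounds, at a relative depth of 0.66. The median centred difference was -0.32, and 18 members were at least 1.5-fold below the median of all genes against 1 above (24.3% and 1.35%, background 16.6% and 19%, and 19.3% and 12.6% of genes at 50 FPKM or more). By centred difference its library was the lowest of the 10 for 28 members and the 2-PCPA library for 18. By FPKM, without centring, it was the lowest for 11, and the 2-PCPA library that stood apart for 55. These counts were not made over all genes either. The electron-transferring core of complex I had a median of -0.64, with 7 of 7 genes below the median, against -0.22 for the other 30 genes of the complex. The catalytic head of complex V had -0.74, the peripheral stalk -0.46 and complex II -0.45. In complex II the heads SDHA and SDHB had -0.68. Complex III had -0.16 and complex IV -0.10, which turned to 0.0041 when set against genes at 50 FPKM or more.

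With GSK-J4, NDUFS8, a core subunit of complex I that carries iron-sulfur clusters, stood at 32.4 against 69.3 FPKM with DMSO, a centred difference of -1.08. On the low side too, ATP5D stood at 21.7 against 44.5 FPKM (-1.01) and ATP5F1 at 84.1 against 162 FPKM (-0.94). NDUFS8 and ATP5D were at their lowest level of the table with GSK-J4, and ATP5F1 was lower only with 2-PCPA. Against that, NDUFA10 stood at 47.7 against 29.8 FPKM (0.66), its highest of the table. NDUFC1 (0.56), UQCR10 (0.53) and UQCRQ (0.44) were next on the high side.

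BRD4770 came with a smaller low-side difference. The median centred difference was -0.24, 60 of 74 members lay below the median of all genes (background 50%), and 9 were at least 1.5-fold below against 2 above (12.2% and 2.7%, background 13.5% and 14.9%). The share past 1.5-fold below was thus close to the background. ATP5I stood at 99.8 against 172 FPKM with DMSO (-0.77), ATP5G1 at 66.5 against 114 FPKM (-0.76), NDUFB3 at 41.0 against 68.3 FPKM (-0.71) and NDUFB1 at 51.1 against 83.8 FPKM (-0.69). The 2 past 1.5-fold above were UQCR10 (1.16) and NDUFC1 (0.63). All 3 c ring genes and all 4 of the peripheral stalk lay below the median, at -0.24 and -0.35. Complex IV had -0.11, which turned to 0.01 against genes at 50 FPKM or more, and the median over all members was then -0.12.

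BIX-01294 gave a scattered pattern around a median of -0.09, with 10 members at least 1.5-fold below and 1 above (13.5% and 1.35%, background 17.5% and 19.7%). The complex medians lay between -0.16 (complex V) and 0.08 (complex III), and with quantile normalization the median over all members was -0.22. Complexes V and I then had -0.27 and -0.28 (-0.16 and -0.10 before) and complex II -0.20 (-0.03 before), while complexes III and IV turned to -0.09 and -0.02. This library also had the lowest relative depth, 0.559. NDUFA3 stood at 28.3 against 61.0 FPKM (-1.14), ATP5S at 2.95 against 6.04 FPKM (-0.89) and ATP5D at 24.8 against 44.5 FPKM (-0.88). UQCR10 (1.53) was the member past 1.5-fold above, and COX7B (0.48), NDUFC1 (0.48) and NDUFS4 (0.47) followed.

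UNC1215 and VPA had the fewest members past 1.5-fold among the compounds with a single library, and also the fewest of all genes. With UNC1215 the median was 0.05, with 3 members at least 1.5-fold above and 0 below (4.05% and 0%, background 5.56% and 4.51%). UQCR10 (1.77), ATP5S (0.81) and NDUFC1 (0.65) were the 3, and NDUFB8 was lowest at 97.8 against 132 FPKM (-0.47). With VPA the median was -0.03, which turned to 0.0024 under 1 of the scalings, with 4 above and 2 below (5.41% and 2.7%, background 9.9% and 7.03%). UQCR10 (1.19), NDUFA3 (0.72), NDUFA4 (0.64) and UQCRQ (0.61) were above, and NDUFB3 (-0.63) and SDHD (-0.59) below. SAHA and VPA both inhibit histone deacetylases, and their member medians stood at 0.30 and -0.03, at 1 and 20 μM.

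**Figure D4:**
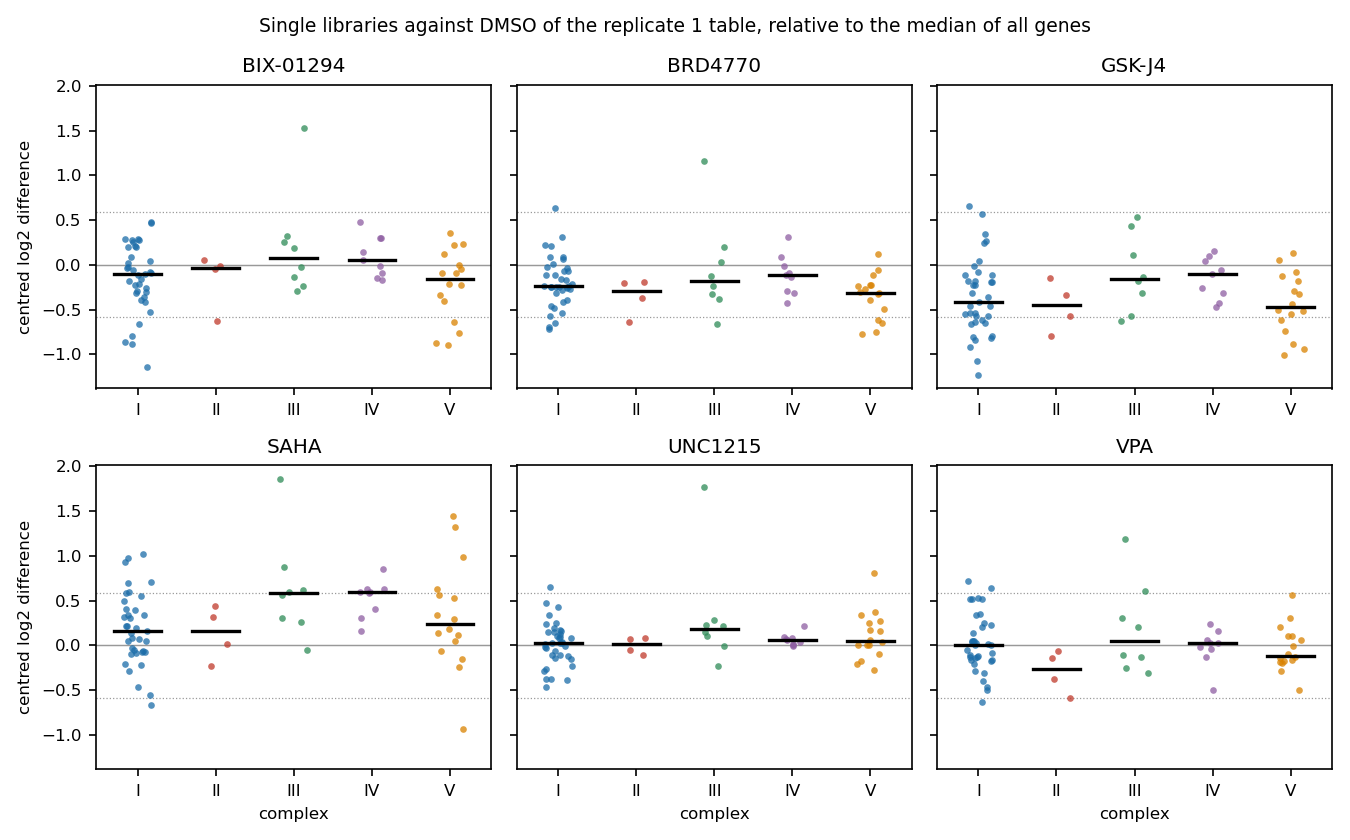
Centred log2 difference from DMSO of the replicate 1 table for each member, by complex, in the 6 single libraries, with a bar at the median of a complex and dotted lines at 1.5-fold. Complexes III and IV lie highest with SAHA (0.58 and 0.60), and complexes I, II and V lie lowest with GSK-J4 (-0.42, -0.45 and -0.47).

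All compounds of a table share 1 DMSO library, and for some members that library was the lowest or the highest of its table. The part of the DMSO level in these differences was not tested. UQCR10 was at 68.8 FPKM with DMSO in the replicate 1 table, below all 9 compounds (71.2 to 262 FPKM), but at 113 in the replicate 2 table, above all 3 (92.8 to 102 FPKM). NDUFC1 did the same, with DMSO lowest in the replicate 1 table (25.8 FPKM) and highest in the replicate 2 table (62.8 FPKM). Among the replicate 1 libraries, 5 members were above DMSO with all 9 compounds after centring (6.76%, background 5.52%), namely ATP5L, NDUFA4, NDUFC1, UQCR10 and UQCRQ, and 4 were below with all 9 (5.41%, background 4.98%), among them ATP5F1, NDUFS1 and SDHD. Both shares were near those of all genes. Among the replicate 2 libraries, 29 members were below DMSO with all 3 compounds (39.2%, background 23.1%) and 4 above (5.41%, background 23.1%) after centring. By FPKM, DMSO was the highest of the 4 libraries for 31 members, a count not made over all genes. NDUFS1, ATP5F1 and SDHD were among the 29, and NDUFA4, ATP5L and UQCRQ were not among the 4.

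**Figure D5:**
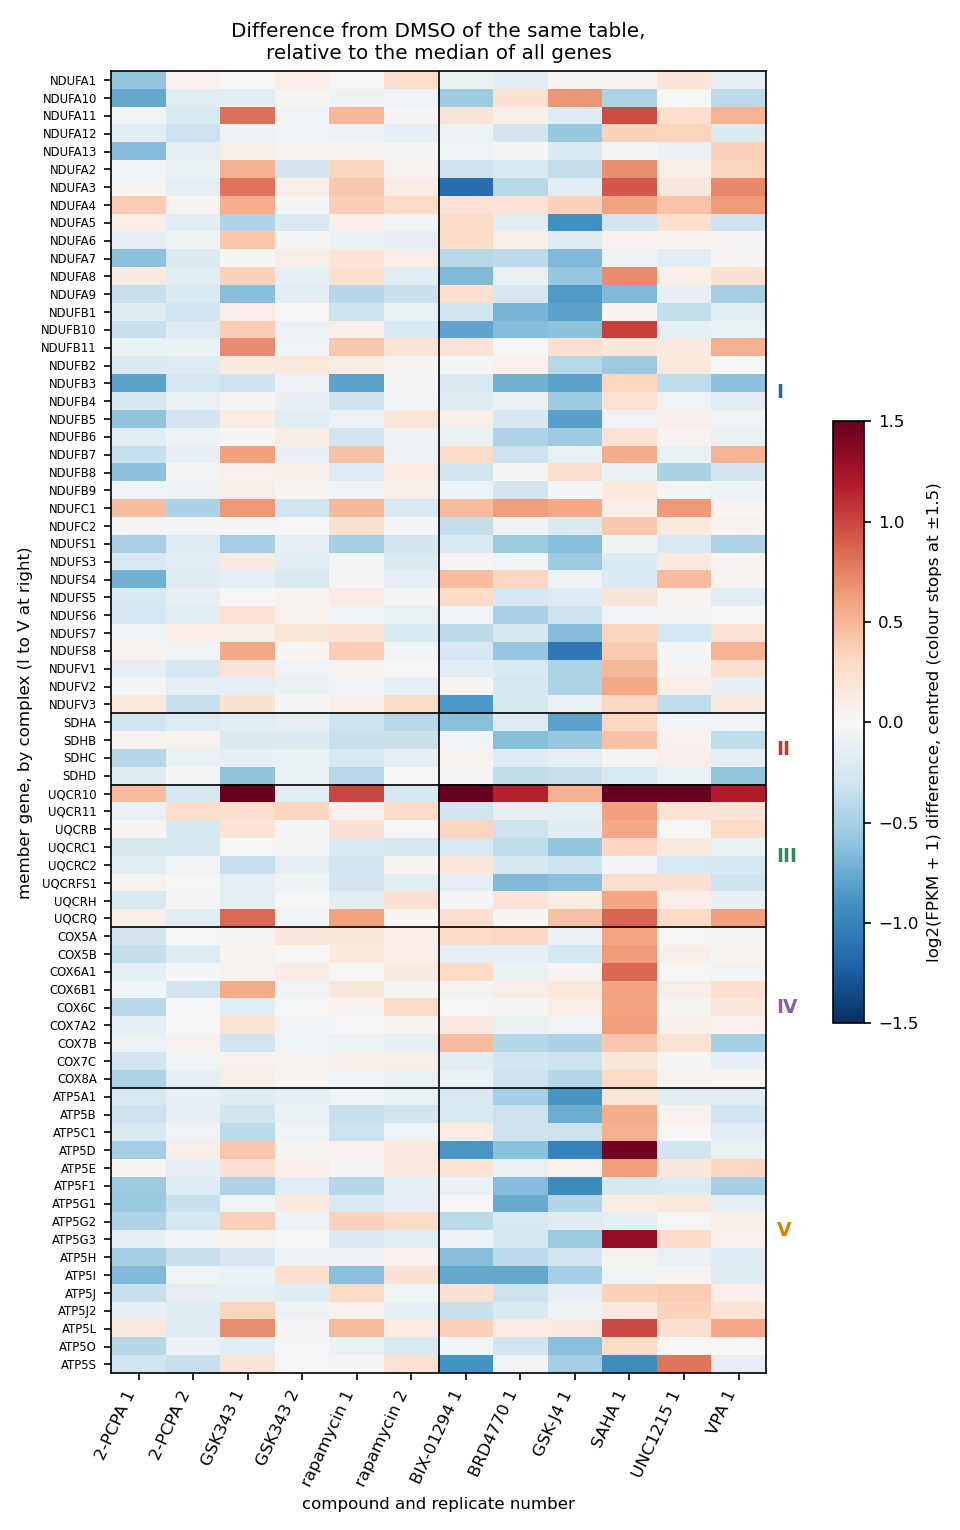
Centred log2 difference from DMSO of the same table for 73 of the 74 members (rows, by complex) and the 12 libraries with a compound (columns), red above and blue below the median of all genes, with colours stopping at ±1.5. UQCR10 is red with every compound in the replicate 1 table and blue in the replicate 2 table, SAHA is mostly red and GSK-J4 mostly blue.

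The members are mostly short genes, and RNA length is a property that the choice by symbol did not use. By GENCODE 29 transcript lengths 58 of the 74 members are under 1000 bases, 9 between 1000 and 2000 bases and 7 longer. With 2-PCPA the short members had a median centred difference of -0.19 against -0.05 for other genes of that length. With GSK-J4 the values were -0.32 and -0.03, with SAHA 0.31 and 0.07, and with BRD4770 -0.24 and -0.04. The 7 longest members lay on the same side as the short ones with these compounds. They had -0.15 with 2-PCPA, -0.63 with GSK-J4, 0.31 with SAHA and -0.24 with BRD4770. Long and short members also shared a side with BIX-01294 (-0.22 and -0.07) and VPA (-0.07 and -0.01). They lay on opposite sides with rapamycin (-0.21 and 0.03), GSK343 (-0.08 and 0.04) and UNC1215 (-0.05 and 0.05).

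Genes around the chain were read from lists of their names. The citric acid cycle list held the enzymes of the cycle, which feed the chain. It also held PDHA1, PDHB, PDHX and DLAT of the pyruvate dehydrogenase complex. With GSK-J4 this list had a median centred difference of -0.63, with 18 of 18 below the median. In it 13 were at least 1.5-fold below (background 16.6% of all genes), PDHB (-1.45) and SUCLA2 (-1.39) lowest. With BRD4770 the list had -0.46 (16 of 18 below, background 50%) and with SAHA 0.16. With the replicated compounds the list was on the low side each time, and limma called 0 of its genes. The median was -0.20 with rapamycin, -0.15 with GSK343 and -0.18 with 2-PCPA, with 13, 13 and 11 of 18 below in both replicates (background 31.8%, 31.6% and 31.8%). IDH2 with rapamycin went the other way, at 13.1 against 5.36 FPKM in replicate 1 and 12.4 against 8.51 in replicate 2. So did IDH2 with GSK343, at 11.2 FPKM in replicate 1 and 9.76 in replicate 2. In the replicate 1 table IDH2 was also above DMSO with BRD4770, SAHA, UNC1215 and VPA. It was below DMSO there with 2-PCPA, BIX-01294 and GSK-J4. The mitochondrial ribosomal proteins, which serve the mitochondrially encoded subunits, had -0.38 with GSK-J4, -0.33 with BRD4770 and -0.15 with 2-PCPA. Complex I assembly factors had -0.45 with GSK-J4, with NDUFAF3 (-1.22) lowest.

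Gene lists outside the mitochondrion lay on the side of the members with some compounds and not with others. The proteasome subunits had -0.16 with 2-PCPA, -0.56 with GSK-J4 and -0.24 with BRD4770, where the members had -0.18, -0.32 and -0.24, but -0.05 with SAHA, where the members had 0.30. They also had -0.27 with rapamycin, -0.19 with GSK343 and -0.28 with VPA, where the members lay between -0.03 and 0.04. The cytosolic ribosomal proteins had -0.19 with 2-PCPA and 0.33 with SAHA, the side of the members, but 0.16 with GSK-J4 and 0.34 with BRD4770, the other side. With rapamycin they had 0.32, with 77 of 83 above the median in both replicates (background 31.8%), where the members had 0.02. The chain genes outside the symbol patterns had 0.54 with SAHA, where COX4I1 stood at 355 against 226 FPKM and the ATP synthase inhibitor gene ATPIF1 at 159 against 107 FPKM. CYC1, the cytochrome c1 gene of complex III, stood at 140.3 FPKM with GSK-J4 against 259 with DMSO, a centred difference of -0.88. With 2-PCPA it stood at 128 against 259 FPKM in replicate 1, from the library that stood apart, and at 246 against 284 in replicate 2, with centred differences of -0.59 and -0.21. COX4I2, the lung and hypoxia form of a complex IV subunit, was listed at 0 in all 14 libraries. The mitochondrially encoded subunits were not analysed here.

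Among the regulators of the chain, 0 of 13 passed the test with a replicated compound. MYC had the largest centred difference of the 13, with a level of 256 FPKM with BIX-01294 and 97.9 with GSK-J4 against 33.4 with DMSO, and with rapamycin at 59.2 against 33.4 in replicate 1 and 63.4 against 25.4 in replicate 2 (log2 fold change 1.05 ± 0.25 SE, limma, adjusted p = 0.564). GABPB1, a subunit of GABP, was lower than DMSO with 2-PCPA, GSK343 and rapamycin in both replicates, at 5.83, 7.07 and 10.3 against 14.2 FPKM in replicate 1 and 9.99, 10.1 and 9.50 against 10.4 in replicate 2. The gaps of GABPB1 were small in replicate 2. The list as a whole had medians of 0.09, -0.06 and 0.01 with these compounds. In both replicates 5 of 13 lay above the median of all genes and 1 below with 2-PCPA. The counts were 4 and 5 with GSK343 and 4 and 3 with rapamycin (background 31.6% to 31.8%). The list stood highest with BIX-01294, at 0.41, with 5 of 13 at least 1.5-fold above and 1 below (background 19.7% and 17.5%). PPARGC1A, the gene for PGC-1 alpha, stayed below 1 FPKM in every library. The list of hypoxia-response genes at the chain held 8 genes, of which 6 averaged 1 FPKM or more. Those 6 had a median of 1.76 with GSK-J4 and 1.05 with BRD4770. In each, 4 of the 6 were at least 1.5-fold above (background 19% and 14.9%). In it the mitophagy receptor gene BNIP3 stood at 248 and 226 against 19.0 FPKM, and PDK1, whose kinase holds back pyruvate entry, at 19.8 and 13.9 against 2.52 FPKM. Lower than DMSO with both were HIGD1A, at 36.3 and 37.3 against 40.1 FPKM, and ISCU, at 24.5 and 26.6 against 32.9 FPKM. The 2 genes not used were NDUFA4L2, at 0 and 0.691 against 0 FPKM, and COX4I2, at 0 throughout. GSK-J4 and BRD4770 also had the lowest member medians of the single libraries. Any link between these values was not tested.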

How the data were processed

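RNA was measured in 14 libraries of U2OS cells by RNA-seq of poly(A) mRNA. The values are FPKM per gene as the authors deposited them, in 2 tables. Per the submitters' processing notes, FastQC, cutadapt and TopHat2 were used with hg19. The program behind the FPKM values, its annotation and all versions: not given in the sources used here. Of values of 100.0 FPKM or more, 63.7% in the replicate 1 table and 0% in the replicate 2 table had over 6 significant digits, so the tables were not written alike and were compared only within themselves. Whether reads were counted by strand is not stated, so reads of a member and of an overlapping gene or near-identical copy (UQCRH and UQCRHL) cannot be told apart.

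Members were matched by symbol, and 1 row without a gene name was left out. For DMSO, 2-PCPA, GSK343 and rapamycin, log2(FPKM + 1) entered 1 limma fit (limma 3.58.1, R 4.3.3) over 8 libraries and 12603 genes that averaged 1 FPKM or more, with the replicate number as a block, a mean-variance trend and Benjamini-Hochberg adjustment at 0.05. The log2 scale with a pseudocount of 1 understates differences of low genes. The replicate number is also the table, and libraries of the same number deviated together from their group means (correlations of 0.71 to 0.78 over 6 pairs of groups). For the other 6 compounds the difference from the 1 DMSO library of the table was centred on the median of 12804 genes and read against 1.5-fold, with no test. Named members were those with the largest centred differences on the same side in both replicates (up to 6 a direction) or in a single library (up to 4), the 3 highest and 3 lowest of each complex, and tissue forms. The members and lists were chosen with earlier results of these data known. The fit was tested on simulated data. The values of 1 member and 1 marker gene are not reported here by name, though both stay in the counts and medians.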

Additional observations from a re-analysis of the deposited data

How the results depend on the processing

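No member was called by limma with 2-PCPA, GSK343 or rapamycin under any of the 19 alternatives run for each, and 8, 0 and 0 members had an unadjusted p below 0.05 in the reported fit. The number of all genes called was 3 for 2-PCPA, 2 for GSK343 and 2 for rapamycin, and moved with the settings. In that order it was 0, 0 and 0 with a pseudocount of 0.1, 1, 1 and 0 with a pseudocount of 5, 1, 0 and 0 without a filter on low values, 16, 18 and 26 with robust variance estimates, and 38, 45 and 66 without rows of small RNAs and clones. A minimum of 5 FPKM gave 1 for GSK343 and 4 for rapamycin, quantile normalization gave 0 for each of these, no trend gave 1 for rapamycin, and fits of only the groups compared gave 272, 0 and 0. Without the replicate block the counts were 1, 0 and 0, and the pairing by table changed no call of a member. Leaving out 1 library at a time gave 2 to 47, 0 to 44 and 0 to 42, with a lone library assumed to vary like the other groups. The cause of these shifts was not tested.

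The median of the members with 2-PCPA (-0.18) was -0.30 without a filter, -0.0242 with quantile normalization and -0.0294 against genes at 50 FPKM or more, and -0.23 to -0.12 with 1 library left out. With GSK343 (0.04) it ran from -0.03 to 0.0788 with 1 library left out. With rapamycin (0.02) it was -0.029 without a filter, -0.0156 with quantile normalization, -0.0081 against genes with transcripts under 1000 bases, and -0.02 to 0.0164 with 1 library left out. Quantile normalization gave -0.22 for BIX-01294, -0.13 for BRD4770 and 0.21 for SAHA. Against genes at 50 FPKM or more BRD4770 had -0.12 and GSK-J4 -0.21, and against short transcripts SAHA had 0.23. The short-transcript reference was chosen after seeing the data.

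Of 627 alternatives for single named members, 621 kept their side of the median. The others were SDHB with 2-PCPA (-0.0146 with a pseudocount of 5, -0.0741 without a filter), UQCRFS1 with 2-PCPA (-0.034 and -0.0903, and -0.0224 to 0.0919 with 1 library left out) and ATP5D with GSK343 (-0.0672 to 0.51 with 1 library left out). Depth is known only relative to DMSO, and with 2 libraries a group small differences were not detectable.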
